A study of Mus musculus with 58 samples.

Results

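The genes described here are 8 genes of adipocytes, Adipoq, Cfd, Retn, Lep, Plin1, Cidec, Fabp4 and Ucp1, of the 20018 gene symbols that the arrays covered. They were chosen by name, and their probes were found by matching each probe's accession to a gene symbol. Their log2 ratios were then read in lung, forestomach and liver of every mouse, as a measure of fat tissue in each piece of organ, with the white fat genes kept apart from Ucp1, the gene of brown fat. Each gene had 1 probe except Cidec, which had 2.

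The animals were male Muta™Mouse of 10 weeks, which carry the bacterial gene lacZ for scoring mutations. They were gavaged on 28 days with olive oil that held benz(a)anthracene, BaA, which belongs to the polycyclic aromatic hydrocarbons. D0 mice received the oil alone, D1 mice 20, D2 mice 40 and D3 mice 80 mg BaA per kg of body weight a day. Tissues were taken 72 h after the last dose, and RNA was extracted from random sections of each organ. In all, 58 arrays were analysed, with 5 mice per dose in lung, 4, 5, 5 and 5 from D0 to D3 in forestomach, and 5, 5, 5 and 4 in liver. Mice 1 to 5 were in D0, mice 6 to 10 in D1, mice 11 to 15 in D2 and mice 16 to 20 in D3, and the same number is the same animal in every tissue. The forestomach of mouse 5 and the liver of mouse 20 were not analysed here.

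Adipocytes store fat as triglyceride in droplets. Plin1 (perilipin 1) and Cidec coat those droplets and govern their size and breakdown, and Fabp4 is a fatty acid carrier of the cytoplasm. White adipocytes also secrete hormones and other proteins, among them adiponectin (Adipoq), leptin (Lep), resistin (Retn) and the complement protease adipsin (Cfd). Brown adipocytes burn fat for heat through Ucp1, a proton channel of the mitochondrial inner membrane. In the mouse, fat lies around the airways, the heart and the thymus in the chest and along the curves of the stomach in the abdomen. Fabp4 is also made by capillary endothelium and macrophages, and Retn, Cfd and Cidec are not limited to adipocytes.

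The promoters of 3 of these genes show how their upstream sequences differ, and they are printed to set a hormone gene and a droplet gene of white fat beside the gene of brown fat. Each run is the 250 bases before the annotated start, from RefSeq on build GRCm38.p6, written 5′ to 3′ on the gene's strand. Capitals mark matches to the motifs searched.
Adipoq, chr16:23146286-23146535, plus strand: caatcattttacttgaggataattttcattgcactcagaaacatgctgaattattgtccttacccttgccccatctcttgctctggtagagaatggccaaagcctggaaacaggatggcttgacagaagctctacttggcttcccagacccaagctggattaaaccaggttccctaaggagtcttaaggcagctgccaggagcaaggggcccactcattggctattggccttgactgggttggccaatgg
Plin1, chr7:79732777-79733026, minus strand: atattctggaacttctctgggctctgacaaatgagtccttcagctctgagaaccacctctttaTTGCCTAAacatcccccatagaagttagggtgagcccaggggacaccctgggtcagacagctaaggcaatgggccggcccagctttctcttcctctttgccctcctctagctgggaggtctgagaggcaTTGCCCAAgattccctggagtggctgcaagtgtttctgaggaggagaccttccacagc
Ucp1, chr8:83290098-83290347, plus strand: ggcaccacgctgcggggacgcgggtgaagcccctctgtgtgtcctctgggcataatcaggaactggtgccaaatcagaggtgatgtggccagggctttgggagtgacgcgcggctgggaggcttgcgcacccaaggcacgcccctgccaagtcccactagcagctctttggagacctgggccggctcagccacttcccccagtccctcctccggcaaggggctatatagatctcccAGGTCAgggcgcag

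Motifs were searched on both strands in the 7 of the 8 genes that had a promoter entry, which leaves out Fabp4. The Plin1 promoter held 2 matches to the C/EBP motif TTNNGCAA, at 187 to 180 and 58 to 51 bases before the start, and 9.56% of all 32851 promoters held at least 1. The Lep promoter and 1 of the 2 Cidec promoters held 1 match each. The Ucp1 promoter held 1 match to the nuclear receptor hexamer AGGTCA, at 14 to 9 bases before the start, which 14.0% of promoters held. The direct repeat bound by PPAR and RXR, which is this hexamer repeated after 1 base, was found in 0.0335% of promoters and in none of the genes here. The windows of Adipoq, Cfd and Retn held no match to any of the motifs.

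On each array the RNA of 1 tissue (Cy5) was set against a universal mouse reference RNA (Cy3). A level is therefore a log2 ratio of tissue to reference, and levels of different genes are not comparable. The Cy3 spot of Fabp4 was well above background on all arrays, and those of Plin1 and Lep on 0. In lung, liver and forestomach, Retn passed on 20, 19 and 16 arrays and Cfd on 14, 1 and 7. Adipoq passed on 1, 0 and 7, the brighter Cidec probe on 2, 0 and 3, and Ucp1 on 1, 0 and 0. Where both spots were dim, a ratio near 0 does not show a level equal to the reference. Below, well above background refers to Cy5. Between 34.1% and 69.2% of the gene spots of an array were well above background in Cy5. Lists of marker genes matched the labelled tissues, with mean log2 ratios of 6.82 to 7.32 for the lung list in lung, 6.75 to 7.59 for the liver list in liver and 3.80 to 4.51 for the forestomach epithelium list in forestomach. Several arrays stood apart. In lung, probes at least 2 log2 units above every other array of the tissue numbered 135 in mouse 5, with a skeletal muscle list mean of 4.54 and a forestomach epithelium list mean of 4.23. They numbered 11 in mouse 17, with a thymus list mean of 2.78, and 23 in mouse 14, and the lung of mouse 16 had a forestomach epithelium list mean of 2.40. In forestomach they numbered 147 in mouse 10 and 48 in mouse 20. Lung results are therefore also given without mouse 14 or without lungs 5, 14, 16 and 17.

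**Figure D1:**
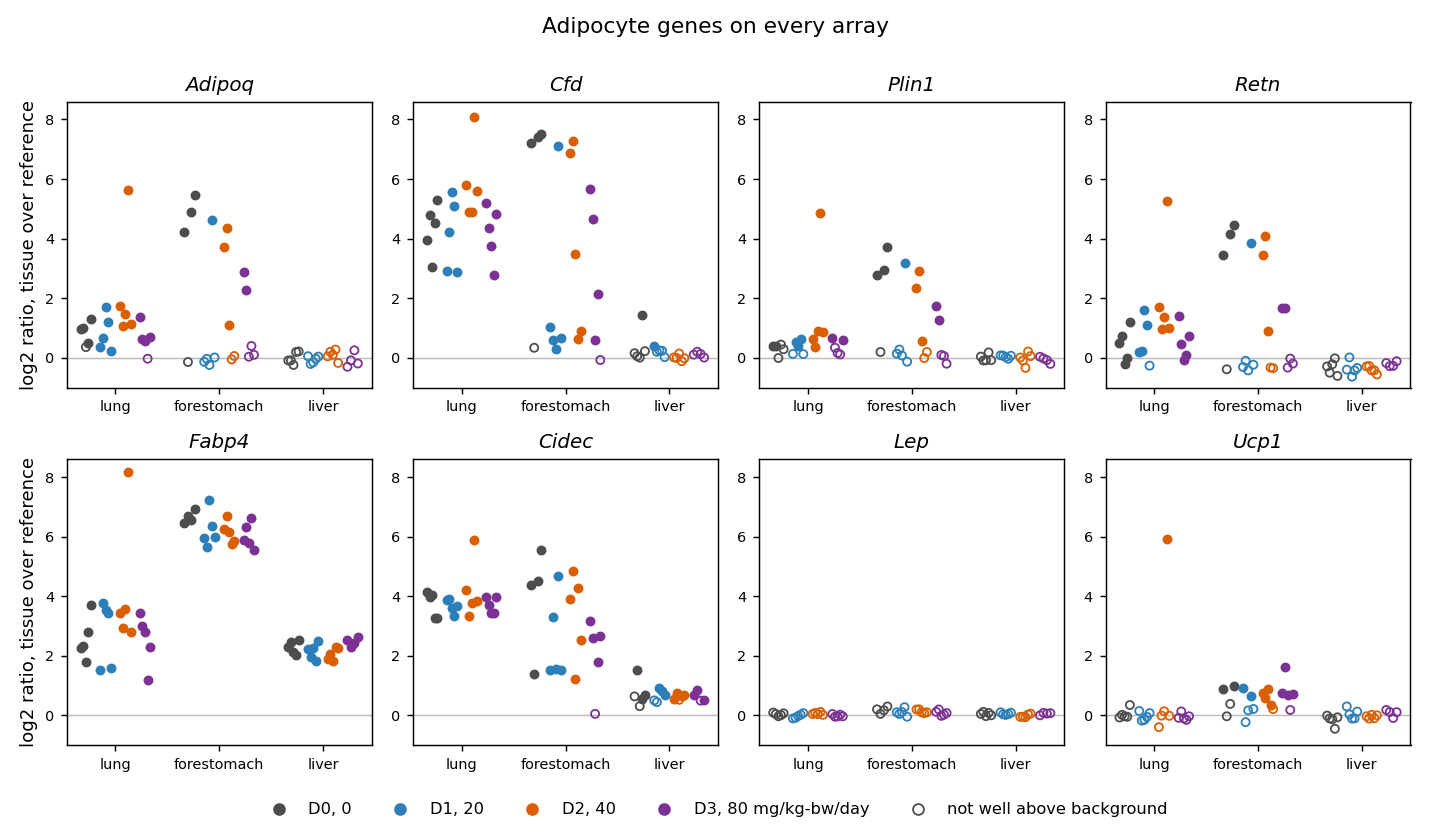
Each point is 1 array, with the log2 ratio of tissue to reference on the vertical axis and the tissue on the horizontal axis, 1 panel per gene. Colours are the 4 doses and open points are spots not well above background. The lung of mouse 14, a D2 animal, stands alone at the top of most lung columns, the forestomach points of Adipoq, Cfd, Plin1 and Retn are split into high and low arrays, and Lep stays near 0 throughout.

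In lung, the hormone gene Adipoq was well above background on 18 of 20 arrays. The ratios were 0.98, 1.02, 0.36, 0.48 and 1.32 in D0, 0.36, 0.67, 1.69, 1.20 and 0.22 in D1, 1.73, 1.05, 1.47, 5.63 and 1.15 in D2, and 1.38, 0.62, 0.55, −0.03 and 0.69 in D3, in the order of the mouse numbers. The groups overlapped, and the value of 5.63, from mouse 14, lay 3.90 log2 units above the next highest lung. Ucp1, by contrast, was well above background in that lung alone. Its ratio there was 5.92, and in the other 19 lungs it ran from −0.39 to 0.35.

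The same lung was the highest for all the other genes that were measured there. Cfd was well above background in all 20 lungs, at 8.07 in mouse 14 and at 2.79 to 5.81 in the others. Fabp4 was 8.18 in mouse 14 against 1.21 to 3.79, and Retn was 5.26 against −0.26 to 1.71. The droplet genes followed, with Plin1 at 4.86 against −0.01 to 0.91 and Cidec at 5.87 against 3.28 to 4.21. Lep was not well above background in any lung. In forestomach the same mouse was not among the high animals, since its Adipoq ratio there was −0.05 and not well above background.

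The 23 probes that set the lung of mouse 14 apart stood for 18 named genes. Members of the present group were 6 of them, Ucp1, Fabp4, Plin1, Adipoq, Retn and Cfd. Another 5 genes came from the lists of further adipocyte and brown adipocyte genes. Pck1, the enzyme that adipocytes use to make glycerol phosphate, was 5.30 against at most 0.85 elsewhere, and Mrap, which escorts the melanocortin receptor to the cell surface, was 4.44 against at most 0.82. Thrsp, a regulator of fatty acid synthesis, was 5.64 against at most 3.01. Cidea, a droplet protein of brown fat, was 6.37 against at most 3.53, and Elovl3, an elongase of brown fat, was 2.13 against at most 0.04. The remaining 7 named genes were Tmem45b, Adig, A530016L24Rik, Orm2, Agpat2, Orm1 and Slc2a5, of which Adig codes for an adipocyte protein and Agpat2 for an enzyme of triglyceride synthesis.

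Of the 24 further adipocyte genes, 16 had their highest lung ratio in mouse 14, and of the 7 further brown adipocyte genes, 3 did (Cidea, Elovl3 and Zic1). Zic1 was barely so, at −0.13 against −0.17 in the next lung, and did not set mouse 14 apart. The other brown genes did not single out this animal either. Cox8b, a heart and muscle type cytochrome oxidase subunit that brown fat shares, was 6.25 in mouse 14 but 7.09 in mouse 5, the lung with the high skeletal muscle list. Cox7a1 was likewise 2.54 in mouse 14 and 3.03 in mouse 5. Otop1 and Dio2 were highest in mice 12 and 3. In the lung of mouse 14 the lists of skeletal muscle (−0.73), thymus (−0.10) and heart muscle (1.26) were within the range of the other lungs. In such bulk samples more adipocytes and more RNA per adipocyte cannot be told apart, here or in any result below.

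**Figure D2:**
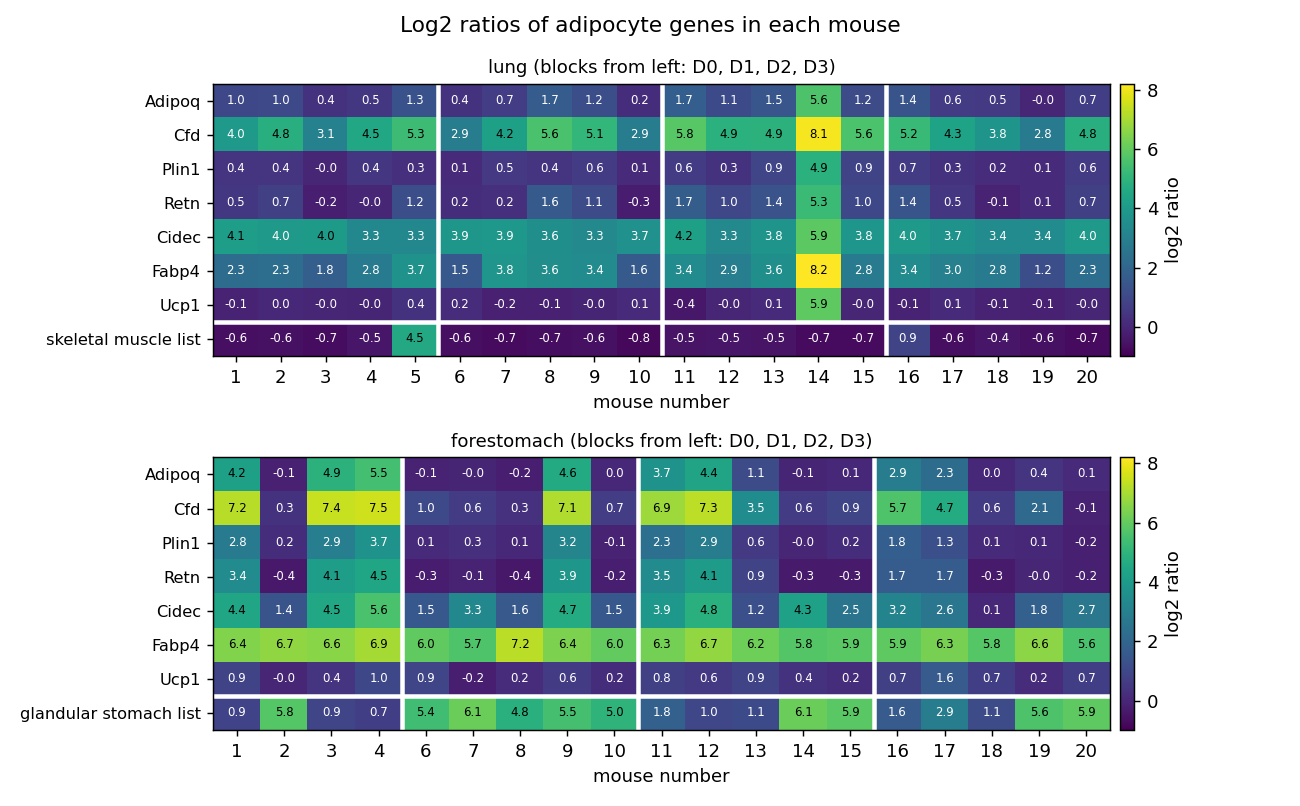
Log2 ratios of tissue to reference, as colour and as printed values, for 7 genes in each mouse (columns, with blocks from D0 to D3) in lung above and forestomach below. The bottom line of each panel is the mean of a list of 8 skeletal muscle genes in lung and of 9 glandular stomach genes in forestomach. Mouse 14 holds the only high Ucp1 value in lung, and in forestomach the high Adipoq, Cfd, Plin1 and Retn values fall in the same mice.

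In forestomach the white fat genes split the arrays. Adipoq was well above background on 9 of 19 arrays. Its ratios were 4.24, −0.14, 4.90 and 5.45 in D0 (mice 1 to 4), −0.13, −0.04, −0.24, 4.61 and 0.01 in D1, 3.71, 4.36, 1.12, −0.05 and 0.06 in D2, and 2.88, 2.27, 0.04, 0.40 and 0.10 in D3. The high arrays were thus mice 1, 3 and 4 in D0, mouse 9 in D1, mice 11, 12 and 13 in D2 and mice 16 and 17 in D3. High and low arrays occurred in every dose group, so the groups overlapped.

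Plin1 and Retn were well above background on the same 9 arrays. Plin1 ratios were 2.78, 0.20, 2.93 and 3.72 in D0, 0.14, 0.28, 0.08, 3.19 and −0.13 in D1, 2.35, 2.90, 0.55, −0.01 and 0.20 in D2, and 1.75, 1.25, 0.10, 0.06 and −0.20 in D3. The Retn ratios ran from 0.90 to 4.46 on these 9 arrays and from −0.42 to −0.02 on the others. Cfd had the widest range of the 8 genes in forestomach. It was 7.21, 0.34, 7.42 and 7.52 in D0, 1.05, 0.60, 0.30, 7.09 and 0.68 in D1, 6.87, 7.27, 3.47, 0.64 and 0.92 in D2, and 5.66, 4.67, 0.60, 2.14 and −0.07 in D3. Its high arrays were those of Adipoq, and mouse 19, at 2.14, lay between.

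Cidec and Fabp4 did not follow this split in full. Cidec was well above background on 18 of 19 forestomach arrays. Its ratios were 4.39, 1.38, 4.50 and 5.56 in D0, 1.52, 3.31, 1.55, 4.67 and 1.54 in D1, 3.91, 4.84, 1.24, 4.28 and 2.53 in D2, and 3.16, 2.60, 0.05, 1.81 and 2.66 in D3. Mice 7 and 14 were thus high for Cidec and at background for Adipoq, and mouse 13 was the reverse. Fabp4 was high on every forestomach array, between 5.57 and 7.24, and its highest value came from mouse 8, whose Adipoq ratio was −0.24.

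Ucp1 was low in forestomach, without a split into high and low arrays. It was well above background on 12 of 19 arrays, with ratios of 0.90, −0.03, 0.39 and 0.99 in D0, 0.93, −0.22, 0.17, 0.65 and 0.22 in D1, 0.75, 0.57, 0.89, 0.36 and 0.21 in D2, and 0.74, 1.64, 0.70, 0.18 and 0.72 in D3. No forestomach array came near the 5.92 of the lung of mouse 14. Lep was at most 0.30 and never well above background.

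The forestomach arrays lay on 3 slides, and these moved with the split. Adipoq was well above background on 5 of 6 arrays of slide 1, on 4 of 7 of slide 2 and on 0 of 6 of slide 3, which held mice 2, 7, 10, 15, 19 and 20. Ucp1 was in the same order, above background on all 6 arrays of slide 1, 5 of the 7 of slide 2 and 1 of the 6 of slide 3. Slide 3 also had the fewest gene spots well above background, 38.4% to 42.1%. Arrays of slide 1 had 55.2% to 69.2% and those of slide 2 had 52.4% to 57.8%. A list of 9 genes of the glandular stomach, the acid and mucus secreting part next to the forestomach, moved the other way in most mice. Its mean log2 ratio was 0.87, 5.76, 0.92 and 0.70 in mice 1 to 4, 5.37, 6.14, 4.84, 5.49 and 4.98 in mice 6 to 10, 1.82, 0.96, 1.06, 6.12 and 5.86 in mice 11 to 15, and 1.64, 2.89, 1.13, 5.63 and 5.92 in mice 16 to 20. The list was high in mouse 9, which was also high for Adipoq, and low in mouse 18, which was low for Adipoq too. From 5 to 9 of its genes were well above background on an array. The most abundant were Gkn2, a gastrokine, and Tff1, a trefoil peptide, with mean log2 ratios of 5.45 and 5.04. The pancreas list, led by Clps, had means of 0.07 to 2.15. The part of the slide or of glandular stomach RNA in the adipocyte values was not tested.

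**Figure D3:**
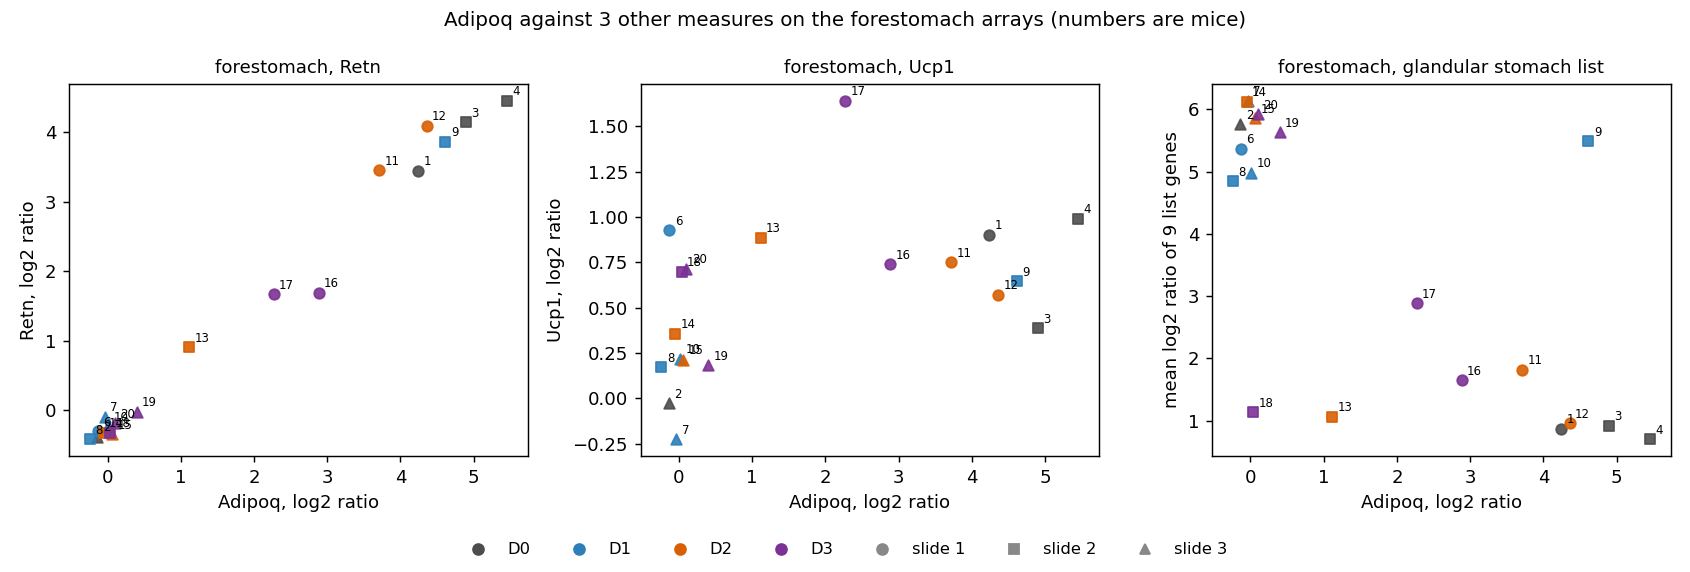
Each point is 1 forestomach array, labelled by mouse, coloured by dose and shaped by slide, with the Adipoq log2 ratio on the horizontal axis. The vertical axes are the log2 ratios of Retn and Ucp1 and the mean log2 ratio of 9 glandular stomach genes. Retn climbs with Adipoq, Ucp1 lies between −0.22 and 1.64 without 2 separate levels, and the glandular stomach list is high in most mice with Adipoq near 0, with mouse 9 high for both and mouse 18 low for both.

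Most of these genes were at background in liver, though Fabp4 and Cidec were measured there. Adipoq, Plin1, Retn, Ucp1 and Lep were not well above background on any of the 19 liver arrays. Cfd was above background in the livers of mouse 4, at 1.43, and mouse 6, at 0.41, and the other livers ranged from −0.12 to 0.25. Fabp4 was measured in all 19 livers at 1.82 to 2.62, and Cidec ranged from 0.31 to 1.54 and was above background in 13 of 19.

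The spread of the genes between mice of one dose was wide. In lung the within-group SD of Adipoq was 1.06, larger than that of 99.7% of the 30383 probes tested there, whose median was 0.17. Without mouse 14 it was 0.48, above 97.1% of probes, whereas that of Plin1 fell from 0.96 to 0.23, above 75.7%. In forestomach the within-group SD was 2.03 for Adipoq, 3.01 for Cfd, 1.84 for Retn and 1.29 for Plin1, above 99.2% of probes or more. It was 0.44 for both Fabp4 and Ucp1, above 89.6% and 89.5%.

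How the genes varied together across mice was asked with Pearson's r and Spearman's rho against Adipoq, with two-sided permutation tests adjusted over 17 relations. In the 19 lungs without mouse 14, the r of Adipoq with Retn was 0.94 (rho 0.96) and with Cfd 0.89 (rho 0.93), each at an adjusted permutation p of 8.5e-05 for r and for rho, which rests on the smallest p these permutations can give, 1e-05. With Fabp4 r was 0.78 (rho 0.76, adjusted permutation p 0.00034 and 0.000996), and with Plin1 it was 0.68 (rho 0.74, adjusted permutation p 0.00317 and 0.000996). These 4 genes thus varied with Adipoq also without mouse 14. Cidec did not, with r of 0.15 (rho 0.12, adjusted permutation p 0.572 and 0.625). Without the 2 lungs farthest from the median Adipoq ratio, r was 0.96 for Retn, 0.85 for Cfd, 0.67 for Fabp4, 0.59 for Plin1 and 0.037 for Cidec. Within slide 1 and slide 3, with 7 lungs each, r was 0.94 and 0.95 for Retn and 0.88 and 0.91 for Cfd. It was 0.64 and 0.77 for Fabp4, 0.48 and 0.93 for Plin1, and −0.065 and 0.37 for Cidec. On slide 1 the exact permutation p, not adjusted, was 0.124 for Fabp4 and 0.276 for Plin1. With 7 lungs a kept relation and a lost one cannot be told apart there, and slide 2 held too few lungs.

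In forestomach the arrays fell into separate clusters, so no relation was tested over all 19. Over the 9 arrays with Adipoq above background, r was 0.99 for Plin1 (rho 0.98), 0.98 for Cidec (rho 0.93), 0.97 for Cfd (rho 0.95) and 0.97 for Retn (rho 0.97), with adjusted exact permutation p of 9.37e-05 to 0.000102 for r and 0.000281 to 0.00159 for rho. Fabp4 had an r of 0.73 (rho 0.83, adjusted exact permutation p 0.0461 and 0.0156). Within these 9 arrays the r of Ucp1 was negative and did not pass the test, at −0.45 (rho −0.35, adjusted exact permutation p 0.27 and 0.381). Without the 2 arrays farthest from the median, r was 0.97 for Plin1, 0.95 for Cidec, 0.91 for Cfd, 0.93 for Retn, 0.92 for Fabp4 and 0.023 for Ucp1. No slide held 6 of these 9 arrays, so no r was taken within slides.

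Between the organs no relation passed the test. Over those same 9 mice, r between lung and forestomach was −0.47 for Adipoq (rho −0.60), −0.20 for Cfd (rho −0.45), −0.50 for Plin1 (rho −0.37), −0.46 for Retn (rho −0.50), −0.53 for Fabp4 (rho −0.70) and −0.33 for Cidec (rho −0.50). None passed the exact permutation test after adjustment, with adjusted p of 0.246 to 0.591 for r and 0.0735 to 0.381 for rho. Without the 2 mice farthest from the median, r was −0.49, 0.23, −0.011, −0.087, −0.82 and −0.19 in the same order. These 9 mice are too few to tell a weak relation from none.

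The transcripts most like Adipoq across arrays included members of the adipocyte lists in both organs. In lung the 5 closest by Pearson's r over 20 arrays were Mrap (0.96), Tmem45b (0.96), Pck1 (0.96), Adig (0.94) and Cidea (0.91), and without mouse 14 their r was 0.80, 0.72, 0.75, 0.67 and 0.59. In forestomach the 5 closest over 19 arrays were Adig (0.98), Mrap (0.98), Thrsp (0.97), Car3 (0.95), a carbonic anhydrase abundant in fat and muscle, and Cdo1 (0.95), a cysteine dioxygenase. There, 24 of 32318 probes reached an r of 0.9, and in lung 10 of 30383 did. Both counts include the Adipoq probe itself and any probe of the other genes described here that reached 0.9. These values describe arrays that share slides and depth and carry no test, and in forestomach, taken over all arrays, they also hold the split into high and low arrays.

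The neighbours of Ucp1 differed between the organs. In lung they were Pck1 (0.96), Tmem45b (0.95), Mpc2 (0.95), Mrap (0.95) and Acaca (0.95), and without mouse 14 r was −0.13, −0.062, 0.35, −0.37 and −0.020, so these values rested on mouse 14. Mpc2 is a subunit of the mitochondrial pyruvate carrier and Acaca an acetyl-CoA carboxylase of fatty acid synthesis. In forestomach 4 of the 5 closest were Terf1 (0.85), Mpig6b (0.85), Arhgef33 (0.84) and Triobp (0.84), none of them on the adipocyte lists. Only 1 of 32318 probes there reached an r of 0.9 with Ucp1, and that was the Ucp1 probe itself, so no other probe did.

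The first question put to a test was whether the genes changed with the dose of BaA. A gene was tested in a tissue where its probe was well above background on at least 4 arrays, which left 6 of the 8 in lung (not Lep or Ucp1), 7 in forestomach (not Lep) and 2 in liver (Fabp4 and Cidec). It was called at an adjusted p of at most 0.05 by limma and a fold change of at least 1.5. None of the genes was called in any dose contrast of any tissue.

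In lung, 0 of 6 genes were called at D1, D2 and D3, where 0.00329%, 0.49% and 1.75% of all 30383 probes were called. At D1 and D3 the differences from D0 were small, from −0.19 to 0.20, and 0 of 6 had an unadjusted p below 0.05. Of all 30383 probes, 2246 and 7131 did. At D2 all 6 were positive, with a median of 1.45 against 0.00 over all probes. An unadjusted p below 0.05 was found for 4 of them and for 4823 of all 30383 probes. The D2 difference was 1.38 for Adipoq (SE 0.61, adjusted p 0.268), from a mean of 0.83 ± 0.40 (SD, n = 5) in D0 to 2.21 ± 1.93 (SD, n = 5). It was 1.52 for Cfd, 1.22 for Plin1, 1.62 for Retn (SE 0.61, adjusted p 0.185), 1.61 for Fabp4 and 0.46 for Cidec.

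Mouse 14 carried much of this. Without it the D2 difference was 0.52 for Adipoq, 0.97 for Cfd, 0.39 for Plin1, 0.82 for Retn, 0.61 for Fabp4 and 0.04 for Cidec, with limma adjusted p of 0.21 to 0.949. Without lungs 5, 14, 16 and 17 the median was 0.77 and Cidec was −0.070. Cidec also turned to −0.65 in the ratios of the scanner software. With slide as a block the median was 1.34 and none of the genes was called. The slope over the 4 doses passed for 0 of 6 genes in lung, where 11% of probes passed. An unadjusted p below 0.05 was found for 0 of 6 genes and for 7722 of 30383 probes.

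In forestomach, 0 of 7 genes were called at D1, D2 and D3, where 0%, 0.00928% and 0.0248% of 32318 probes were called. All 7 were lower than D0 at D1 and D2, and all but Ucp1 at D3. Their medians were −1.70, −1.21 and −1.90, against −0.03, −0.01 and −0.01 over all probes, and 2, 0 and 2 genes had an unadjusted p below 0.05. Of all 32318 probes, 1568, 1128 and 1624 did. The widest difference was that of Cfd at D1, −3.68 (SE 1.86, 95% interval −7.58 to 0.23, adjusted p 0.931). Adipoq had a mean of 3.61 ± 2.55 (SD, n = 4) in D0, 0.84 ± 2.11 (SD, n = 5) in D1, 1.84 ± 2.07 (SD, n = 5) in D2 and 1.14 ± 1.34 (SD, n = 5) in D3. Its differences from D0 were −2.77 (SE 1.25), −1.77 and −2.47, with adjusted p of 0.931, 1.0 and 0.999. The D0 group held 3 high arrays of 4, and mouse 2, the low D0 array, lay on slide 3. Without mouse 2 the differences were −4.02, −3.02 and −3.72, and without mouse 4, the highest D0 array, they were −2.16, −1.16 and −1.86.

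Ucp1 differed from D0 by −0.22, −0.01 and 0.23 at the 3 doses. The D2 value was positive, at 0.11, in the ratios of the scanner software. The glandular stomach list moved opposite to the white fat genes in these contrasts, with medians of 3.48, 0.94 and 1.15, 9 of 9 genes positive and 0 called at each dose. With slide as a block the medians of the 7 genes were −1.49, −1.36 and −1.89. Within slide 1 the mean Adipoq ratio was 4.24, −0.13, 4.03 and 2.58 from D0 to D3, within slide 2 it was 5.17, 2.19, 0.53 and 0.04, and within slide 3 it was −0.14, −0.01, 0.06 and 0.25, each from 1 or 2 arrays. The slope passed for 0 of 7 genes where 0.0309% of probes passed, with 0 of 7 at an unadjusted p below 0.05. Of all 32318 probes, 1670 were at that level.

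In liver, 0 of 2 genes were called at D1, D2 and D3, where 0.241%, 0.483% and 0.395% of 22789 probes were called, and the slope passed for 0 of 2 where 0.908% did. The differences ran from −0.22 to 0.18, and 0 of 2 genes had an unadjusted p below 0.05 in each of these contrasts. Of all 22789 probes, 1745, 3093 and 3595 did at D1, D2 and D3, and 3636 for the slope.

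**Figure D4:**
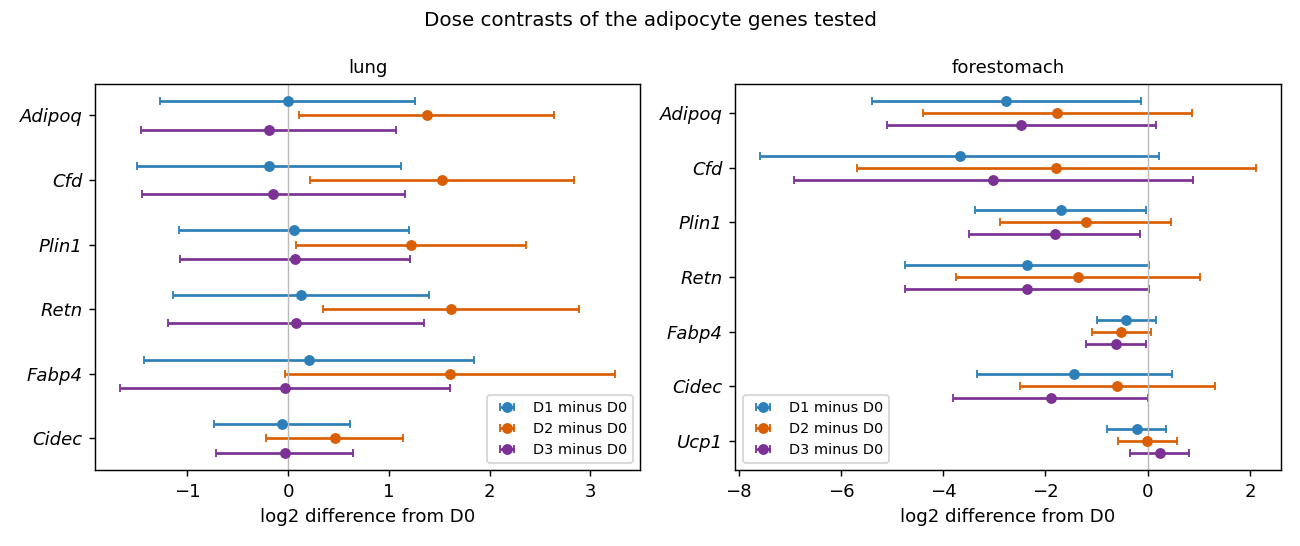
Points are log2 differences of D1, D2 and D3 from D0 and bars are 95% intervals from the limma fits, for the 6 genes tested in lung and the 7 tested in forestomach. In lung the D2 values lie to the right of 0 and the D1 and D3 values near it. In forestomach most points lie to the left of 0, but the intervals are wide and most of them cross 0.

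Whether the D3 difference itself differed between tissues was tested with an interaction term. Between lung and forestomach, 0 of 6 genes passed where 0.246% of 28434 probes did. The 6 values were all positive, with a median of 2.08 and 3 unadjusted p below 0.05, beside 2384 of the 28434 probes. The lowest limma adjusted p was 0.488, for Cidec. Between lung and liver, 0 of 2 genes passed where 2.04% of probes did, with 0 unadjusted p below 0.05, beside 3130 of 21868 probes. Between forestomach and liver, 0 of 2 passed where 0.0227% of probes did, with 1 unadjusted p below 0.05 (Cidec, −1.79), beside 1580 of 22074 probes.

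The second question was how the tissues differed, taking the mean of the 4 dose groups of each. Lung was higher than liver for 6 of 7 genes tested, where 43.2% of 34817 probes were called. Cfd differed most, by 4.44 (SE 0.57, adjusted p 7.1e-10), and Cidec by 3.16 (SE 0.28, adjusted p 1.08e-14). Retn, Adipoq, Fabp4 and Plin1 were higher by 1.22, 1.14, 0.78 and 0.65, and Ucp1 was not called, at 0.29 (limma adjusted p 0.301). Ucp1 was well above background on 1 lung array and 0 liver arrays and entered this contrast only through its forestomach arrays. Its value thus sets background and mouse 14 against background, and measures no difference between the organs. Adipoq, Plin1 and Retn also entered this contrast only through arrays of the other tissues, so the filter largely fixed the direction of their calls. Since Adipoq, Plin1 and Retn were not well above background in any liver, their brightness there is only a bound. With the channels scaled together, the Cy5 signal of lung was at least 1.85-fold that of liver for Adipoq. It was at least 1.34-fold for Plin1, which was well above background on 12 of 20 lungs, and at least 2.24-fold for Retn. These bounds hold for that scaling alone, and their lung means include mouse 14. Here the mean log2 Cy5 signal of lung, with channels scaled together, was set against the higher of the liver spot and the dimmest signal above background on its array.

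These smaller differences rested on few arrays and on the scaling. Without mouse 14 in any tissue, 4 genes were called, and Fabp4 (0.54, under the minimum fold), Plin1 (0.46, adjusted p 0.0709) and Ucp1 (−0.013) were not. Without lungs 5, 14, 16 and 17, 3 genes were called. Each slide held 1 tissue, and with slide as a random block Cfd (4.45) and Cidec (3.15) alone were called, with Retn at an adjusted p of 0.054. With the Cy5 signal alone Adipoq, Plin1 and Ucp1 turned to −0.20, −0.66 and −0.90 and Retn was not called, at 0.15 (adjusted p 0.715), on a scale where the median of all probes was −0.70.

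Forestomach was higher than liver for 6 of 7 genes, where 36.5% of probes were called. Fabp4 led with 4.03 (SE 0.27, adjusted p 2.5e-19), followed by Cfd with 3.32, Cidec with 2.30, Adipoq with 1.87, Retn with 1.72 and Plin1 with 1.24. For Adipoq, Retn and Plin1, at background in every liver, the filter again largely fixed the direction of the call. In the same scaling alone, and measured against the bound in liver, forestomach Cy5 signal was at least 3.22-fold higher for Adipoq. It was at least 1.93-fold for Plin1 and 3.0-fold for Retn. All 6 stayed called with slide as a random block, with adjusted p of 0.0142 or less, but with the Cy5 signal alone Plin1 was not, at 0.17 (adjusted p 0.553). Ucp1, at 0.58 (SE 0.26, limma adjusted p 0.0426), missed the minimum fold change. It was called with the mouse as a block (0.59, limma adjusted p 0.0445) and with loess ratios of the scanner medians (0.59, limma adjusted p 0.0421). In the ratios of the scanner software it was called at 2.12 (limma adjusted p 1.9e-06). With the Cy5 signal alone it was −0.61, where the median of all probes was −0.57.

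Between lung and forestomach, 2 of 7 genes were called where 30.9% of probes were. Fabp4 was lower in lung, by −3.25 (SE 0.27, adjusted p 6.28e-16), and Cidec was higher, by 0.86 (SE 0.28, adjusted p 0.00589). The second Cidec probe, which was dimmer, went the other way at −0.39 (adjusted p 0.0597), so the 2 probes disagree on this gene. The Cidec call was also lost with the Cy5 signal alone (0.41, adjusted p 0.199) and with median centring (0.60, adjusted p 0.0671). Cfd was not called, at 1.12 (SE 0.57, adjusted p 0.0698). Adipoq (−0.73), Plin1 (−0.59), Retn (−0.50) and Ucp1 (−0.29) were not called either.

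Mouse 14 again decided the count. Without it in any tissue 6 genes were called, with Adipoq (−1.06), Plin1 (−0.87), Retn (−0.82), Ucp1 (−0.60) and Fabp4 (−3.52) lower in lung and Cidec (0.81) higher. Ucp1 was well above background in none of those lungs, so its lung value is one of background. Without mouse 2 in any tissue 5 were called, and with slide as a random block Fabp4 alone was. In the ratios of the scanner software Adipoq and Retn turned to 0.73 and 0.35, and Ucp1 was called, at −1.62 (limma adjusted p 0.000134). The Fabp4 difference was called in each of these settings.

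**Figure D5:**
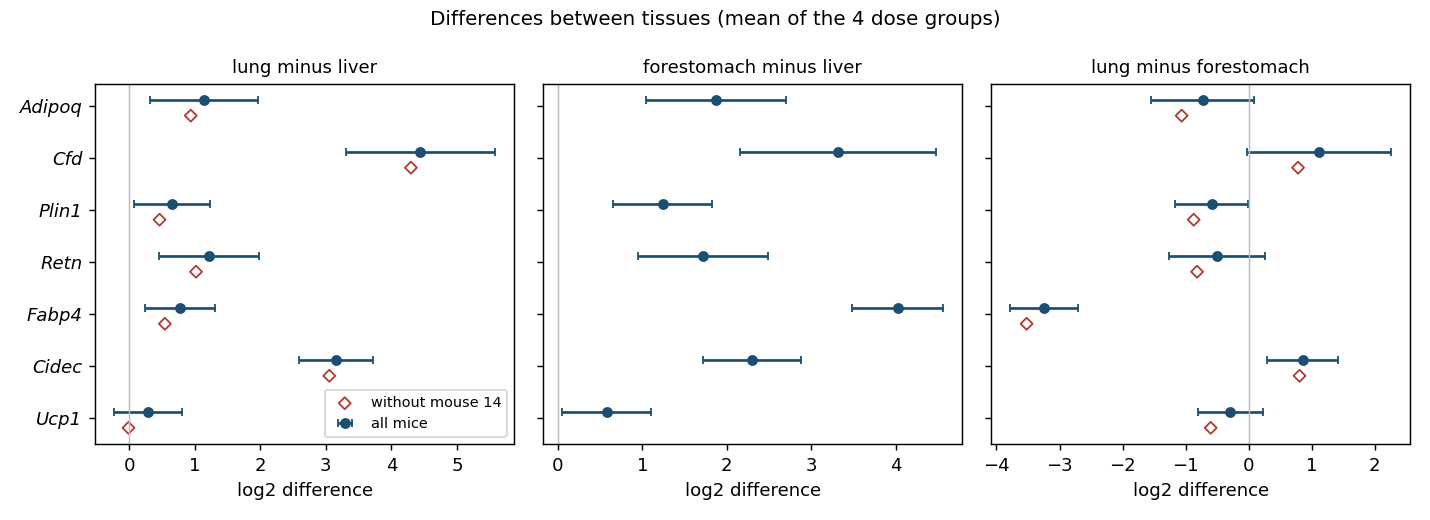
Points are log2 differences between tissues for the 7 genes tested, with bars for 95% intervals from the joint limma fit, and open diamonds are the values without mouse 14 in the panels that hold lung. Cfd and Cidec lie farthest from 0 in lung against liver, Fabp4 in both panels with forestomach, and the diamonds move Adipoq, Plin1, Retn and Ucp1 to lower values against forestomach.

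The further adipocyte genes, 24 genes of fat storage and its control, gave a mixed picture. At D2 in lung, 19 of the 22 tested were positive with a median of 0.29, and 0 were called. Without mouse 14, 10 of 22 were positive with a median of −0.016, and without lungs 5, 14, 16 and 17, 15 of 22 with a median of 0.11. In forestomach 4, 3 and 4 of 24 were positive at D1, D2 and D3, with medians of −0.42, −0.34 and −0.31, and 0 were called. Between lung and forestomach, 6 were called higher in lung (Adrb3, Cd36, Gpd1, Lpl, Nnat and Scd1) and 7 lower (Acsl1, Acvr1c, Dgat2, Pck1, Plin4, Pparg and Slc2a4), beside 30.9% of all probes called in either direction. The widest were Cd36, a fatty acid transporter also made by endothelium, at 3.17, and Dgat2, which makes triglyceride, at −4.98. Slc2a4, the insulin-responsive glucose transporter of fat and muscle, was −4.11. The highest mean log2 ratios on this list were those of Cd36 (4.11) and Cebpa (3.33) in lung and of Slc2a4 (5.61) and Dgat2 (4.80) in forestomach. Dgat2 and Slc2a4 were high on all forestomach arrays, at 4.10 or more and 4.98 or more, with or without Adipoq. Against liver, 7 of 24 were called higher and 11 lower in lung, beside 43.2% of all probes. In forestomach 8 were called higher and 11 lower than in liver, beside 36.5% of all probes. The list mean was highest in liver, with a median over arrays of 2.46, against 1.28 in lung and 1.31 in forestomach.

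Of the 7 further brown adipocyte genes, Dio2, which activates thyroid hormone, was called lower at D3 in lung, at −0.59 (SE 0.18, adjusted p 0.0464), beside 1.75% of all probes called. Without mouse 14, a D2 animal, its limma adjusted p was 0.0501 and it was not called. Without lungs 5, 14, 16 and 17 Dio2 was called, at −0.85 (limma adjusted p 0.0374). No other member was called in a dose contrast of lung or forestomach. Between lung and forestomach, Cox8b (2.48), Otop1 (1.54), Cox7a1 (0.84) and Dio2 (0.74) were called higher in lung and Cidea (−3.07) lower, which makes 5 of 7 beside 30.9% of all probes. Without lungs 5, 14, 16 and 17 there were 3 higher and 1 lower. Cidea was high on every forestomach array, between 4.05 and 6.63, and had the highest mean there, 5.77, with Cox8b next at 1.56. In lung Cox8b had the highest mean, 4.07, and Cidea the next, 2.71. Neither was thus limited to arrays with Ucp1.

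Markers of tissues and cells that lie near fat were read on the same arrays. In lung the heart muscle list ran from 0.13 to 3.02, led by Myh6 (mean log2 ratio 5.03) and Myl7 (3.28), and the mesothelium list from −3.04 to 0.84, led by Upk3b (−0.48) and Lrrn4 (−0.72). Lrrn4, a mesothelial membrane protein, was called lower at D3 in lung (−1.74, SE 0.50, limma adjusted p 0.034), beside 1.75% of all probes called. It stayed called without mouse 14 (−1.74, limma adjusted p 0.0382), but not without lungs 5, 14, 16 and 17 (−1.33, limma adjusted p 0.265). With all lungs, the median of the 4 mesothelium genes at D3 was −1.67 with 0 positive. In forestomach the mesothelium list ran from −2.25 to 0.32. The endothelium list, led by Cdh5 (7.22) and Kdr (6.89) in lung, had means of 5.19 to 5.59 in lung. Liver means were 2.25 to 3.09 and forestomach means 0.97 to 1.97, and all 5 of its genes were called higher in lung than in forestomach, beside 30.9% of all probes.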

How the data were processed

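Tissue RNA (Cy5) and a universal mouse reference RNA (Cy3) were hybridised to 2-colour Agilent arrays without dye swaps. Per the file headers, Feature Extraction 10.7.3.1 wrote the deposited spot intensities on a linear scale and its own log10 ratios. Also deposited was the authors' matrix of log2 ratios, made by LOWESS on median signals without background correction, and these ratios were analysed here. Set against loess ratios computed from the scanner files, they gave r of 0.995 to 0.998 per array with slopes of 0.989 to 0.996, so their scale is log2 and their direction tissue over reference, and column medians were −0.04 to −0.02.

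For dose contrasts, only probes whose Cy5 spot passed the scanner's background test on 4 or more arrays of a tissue were kept there. Tissue contrasts kept every probe that passed so in any tissue, and interaction terms those that passed in both tissues compared. The fits used limma 3.58.1 in R 4.3.3, with 1 model per tissue for dose and 1 model of all 12 groups for tissue contrasts, and Benjamini-Hochberg adjustment over all probes of a contrast. The study's MAANOVA was not installed. Relations used Python 3.11.15 with numpy 2.4.6, scipy 1.17.1, pandas 2.3.3 and matplotlib 3.10.9 and 100000 permutations, or all of them for 9 mice. The code was tested on simulated data. Probes carry accessions, which a RefSeq table of GRCm38.p6 turned into symbols. Spots of one probe were averaged, and a gene's leading probe was the one well above background on most of the 58 arrays.

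The genes, the marker lists and the samples singled out were chosen with earlier results of these data known. Named besides the 8 genes were the 5 genes closest to Adipoq and to Ucp1 in lung and in forestomach, called list members and the 2 list members with the highest mean. For Ucp1 in forestomach, 1 of these genes is not reported here. Genes of the lung of mouse 14, and Zic1, were named after their values were seen. Fits without lungs 5, 14, 16 and 17 were also chosen after seeing the data. The normexp alternative (offset 50) used the median foreground signals of the files. The alternative of Cy5 alone used the same signals, scaled to each array's 75th percentile. The labels give the same number to tissues of the same mouse. Over 21703 probes, deviations from the group means of such pairs correlated with a median r of 0.13 (lung and liver), 0.05 (forestomach and liver) and 0.11 (lung and forestomach). No pair of arrays held identical values. The number of arrays limits the precision, and all mice of a group were separate animals.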

Additional observations from a re-analysis of the deposited data

Results flagged for a closer look

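A sample is named here where its gap to the nearest of the others in its dose group, divided by the range of the group, was above Dixon's 95% critical value. Of 108 groups of 4 or 5 arrays tested, 17 were past that value, and chance alone gives about 1 in 20. The probes of a tissue were read on the same arrays, so a single unusual array counts several times. The 108 are thus not independent, and the 17 cannot be weighed against chance. The 14 given here leave out 3 whose group or array was at background.

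In lung at D2 the sample was mouse 14 each time. It had log2 ratios of 5.63 for Adipoq, 8.07 for Cfd, 4.86 for Plin1, 5.26 for Retn, 8.18 for Fabp4, 2.58 for the second Cidec probe and 5.92 for Ucp1. In forestomach at D1 it was mouse 9, with 4.61 for Adipoq, 7.09 for Cfd, 3.19 for Plin1, 3.86 for Retn and 2.68 for the second Cidec probe. In forestomach at D0 the Cfd ratio of mouse 2 was low, at 0.34, and in liver at D0 the Cfd ratio of mouse 4 was high, at 1.43. The cause was not tested.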

How the results depend on the processing

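Of 537 alternative values of the 21 counts and other main results, 528 stayed within 1.5 times the value reported, and of 1482 alternative values of single genes and relations, 1409 kept their direction and their side of the threshold. The number of genes called between lung and forestomach (2 as reported) was 1 with median centring, 4 in the ratios of the scanner software, 1 with slide as a block, 6 without lungs 5, 14, 16 and 17, and 2 to 6 when single mice were left out, with 5 without mouse 2 and 6 without mouse 14. Between lung and liver (6 as reported) it was 2 with slide as a block, 3 without the 4 lungs, and 4 to 6 when single mice were left out, with 4 without mouse 14. The shares of all probes called, 30.9% between lung and forestomach and 43.2% between lung and liver, are those of the full fits. No such share is set beside the counts of the alternative fits, so these do not show a change particular to the genes. The relations between tissues past the threshold rose from 0 to 1 without the 2 farthest mice. With the mouse as a replicate block, 6 genes were called between lung and liver, 7 between forestomach and liver and 2 between lung and forestomach, and the block changed no other call of these genes than that of Ucp1.

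Direction changed in the following values. In the ratios of the scanner software, lung minus forestomach was 0.73 for Adipoq and 0.35 for Retn, the D2 difference of Cidec in lung was −0.65 and that of Ucp1 in forestomach 0.11. With the Cy5 signal alone, lung minus liver was −0.20 for Adipoq, −0.66 for Plin1 and −0.90 for Ucp1, and forestomach minus liver was −0.61 for Ucp1. Without the 4 lungs, Ucp1 in lung minus liver was −0.041 and the D2 difference of Cidec in lung −0.070. When single mice were left out, Ucp1 in lung minus liver ran from −0.013 to 0.39, and the D2 difference of Ucp1 in forestomach from −0.20 to 0.13. The r of Adipoq with Cidec in lung was −0.0076 with the Cy5 signal alone and −0.065 within slide 1, that of Adipoq with Ucp1 in forestomach 0.023 without the 2 farthest arrays. Between tissues, r of Cfd was 0.32 for values minus the dose means and 0.23 without the 2 farthest mice, and r of Plin1 was 0.28 with the Cy5 signal alone. The cause was not tested.

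The Cy5 signal alone moved the median of all probes to −0.70 in lung minus liver and −0.57 in forestomach minus liver, and median centring moved it to 0.24 and 0.45 there and to 0.38 at D2 in lung. Median centring called 0 probes at D2 and D3 in lung against 149 and 532, and the scanner software 377 and 1121. The fit with the mouse as a random block and slide as a fixed term was not run for tissue differences, because each slide held 1 tissue, and relations within forestomach slides were not run for want of arrays. Genes near background, Plin1 and Ucp1 above all, are limited by their signal.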
